A study of Homo sapiens with 34 samples.

Results

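Genes whose 3′ end reads fell into 2 or more separate 3′ UTR intervals were examined in human hTERT-RPE1 cells, a telomerase-immortalised line derived from retinal pigment epithelium. A gene was included when at least 2 of its intervals on the same chromosome and strand did not overlap, named that gene alone, held at least 200 reads in each of the 4 summed time courses and had multimapping reads below 10% of all reads. This left 1553 genes with 3923 intervals, out of 19041 genes with 71668 intervals, and 9855 genes had 2 or more intervals before the read limit. Of the 1553 genes, 1095 had 2 intervals, 279 had 3 and 179 had 4 or more, up to 12. The genes were chosen by their read counts, the same counts as in the shares described here, so that every one of these genes has 2 well-read intervals is a consequence of the choice and not a result. In MORN4 and MYO5C the second interval had 200 reads in its lowest course and in DDX31 201, just inside the limit, while RALGAPA2, STUB1 and ZNF814 were just outside it with 199.

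Both cell lines were polyclonal and carried a doxycycline-induced shRNA against the 3′ UTR of CCND1, the gene of cyclin D1, which with CDK4 and CDK6 starts the division cycle. The knockdown line carried the shRNA alone and had the larger cells. The overexpression line carried the same shRNA with a FLAG-tagged CCND1 allele that the shRNA spares, and had the smaller cells. Every library came from cells kept in 0.5 µg/mL doxycycline, which also induced the CCND1 allele. From day 4 of induction, cells were fed 4-thiouridine (s4U), a uridine analogue that is built into new RNA, for 24 h. They were then chased with uridine for up to 1440 min. For the unlabelled libraries, plain uridine replaced s4U and there was no chase. Each line had 2 courses (7 and 10 libraries for knockdown, 8 and 9 for overexpression). In this SLAM-seq design the s4U is alkylated and read as T>C conversions, and QuantSeq libraries, primed on the poly(A) tail with oligo(dT), give reads next to the 3′ end. Comparisons of read shares used the 6 libraries that every course has (unlabelled, 0, 180, 360, 720 and 1440 min) summed per course, which gives 2 courses against 2. No source used here says that the courses of a line came from separate cultures, so the spread between them may be technical.

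Libraries held 14712332 to 44480703 reads in 3′ UTR intervals. Of the retinal pigment epithelium markers, RPE65, BEST1, RLBP1, TYR, PMEL and SERPINF1 stayed below 1 CPM in every library (CPM being reads scaled to the same library total), OTX2 had a median of 1.32 CPM, and MITF was present at 23.2 to 74.8 CPM (median 33.4). The epithelial keratins KRT18 and KRT8 lay between 154 and 504 CPM and between 41.2 and 502 CPM. KRT7 had a median of 4.01 CPM and the epithelial cadherin CDH1 a median of 0. The mesenchymal marker VIM lay between 3690 and 8150 CPM, and blood markers were at or near 0. CCND1 itself, which is not among the 1553 genes, had a median level of 110 CPM over the knockdown libraries and of 39.4 CPM over those of the overexpression line. Because both lines carry the shRNA and its target is the endogenous 3′ UTR, these levels check neither label. In 3 libraries the distal over proximal ratio depended most on the GC difference between the intervals. The slope of its log2 deviation per 10 percentage points of GC was −0.63 in the unlabelled library of knockdown 1, −0.44 in that of overexpression 1 and −0.38 in the 720 min library of overexpression 1, against −0.24 to 0.13 in the others. The median deviation was 0.52, 0.27 and −0.12 in these libraries, and only the first 2 lay above all others.

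The 3′ end of an mRNA is made when the cleavage and polyadenylation machinery recognises a hexamer, most often AATAAA or ATTAAA, a short distance upstream of the cleavage site. A gene with several such sites can end in a tandem site of the same last exon, in a site inside an intron, or in another last exon. The first choice changes only the 3′ UTR, and with it the sites open to microRNAs and RNA-binding proteins, while the other choices also change the end of the protein. Here the proximal interval is the kept interval nearest to the gene's start and the distal interval the one farthest along the direction of transcription. The distal share is the distal reads as a percentage of the distal and proximal reads.

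The 2 intervals of each of 2 genes described below are shown by the genome sequence just before their ends, in hg38 and read 5′ to 3′ on the strand of the gene, because each pair has a polyadenylation hexamer at both of its ends. Capitals mark the hexamer.
HMGA2, first interval, plus strand, chr12:65843492-65843521: gaactgaatcaaAATAAAatctactacaca
HMGA2, last interval, plus strand, chr12:65966258-65966287: cattaaatgagtAATAAAgtttggtcaaaa
CTSC, first interval, minus strand, chr11:88320816-88320845: aaatacttgtaaAATAAAgaatgttatgta
CTSC, last interval, minus strand, chr11:88293598-88293627: tcatatttttaaAATAAAgttttaaaaata
The hexamer began 20 bases before the end of the first interval and 26 before that of the last in HMGA2, and 23 and 24 in CTSC.

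Most reads lay in the distal interval. The median distal share over the 1553 genes was 88.2%, with quartiles of 67.9% and 95.4%. It was over 90% in 703 genes (45.3%) and under 50% in 245 (15.8%). Over all 3139 genes tested, the median was 93.6%, with 58.8% of genes over 90% and 14.4% under 50%. For the 1586 tested genes outside the list, which needed fewer reads, these values were 97.1%, 72.1% and 13.1%. The read limit on the proximal interval bounds how high a distal share can be. The shares of the listed genes therefore follow in part from their choice. By the GENCODE annotation, 124 of the 1553 genes had both intervals in the same exon and 906 in separate exons of a transcript. In 523 the intervals shared no transcript. The median distal share was 91.1%, 90.6% and 80.5% in these groups. Only 37 pairs were less than 100 bases apart, 305 were 100 to 2000 bases apart and 1211 were farther apart, with a median gap of 8815 bases.

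**Figure D1:**
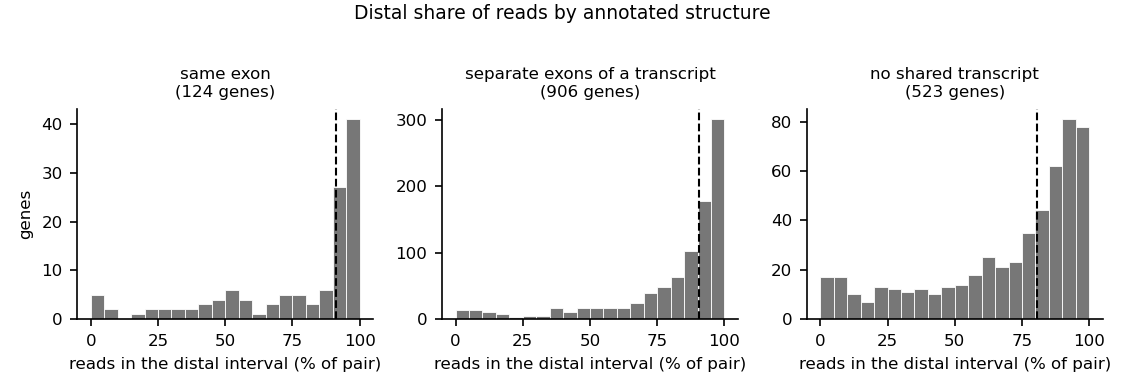
Distal share (reads in the distal interval as a percentage of distal and proximal reads, x axis) against the number of genes (y axis), in separate panels for pairs in the same exon, in separate exons of a transcript and with no shared transcript. The dashed line is the median of each group, 91.1%, 90.6% and 80.5%, and the group without a shared transcript has more genes at low shares.

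The intervals differed in sequence as well as in reads. The distal interval held an annotated transcript end in 1523 genes (98.1%), and the proximal interval in 1070 (68.9%). In 751 genes (48.4%) the proximal interval lay within an intron of a transcript that ends in the distal interval. A hexamer AATAAA or ATTAAA in the last 50 bases was found in 77.5% of distal and 34.8% of proximal intervals, against 27% of all 71668 intervals and 70.3% of the 13368 intervals with at least 200 reads in every course. Proximal intervals with an annotated end had one in 47.7%, and those without an annotated end in 6.21%. Annotated coding sequence overlapped 65.5% of all proximal intervals and 91.5% of those without an annotated end. Reads in an interval therefore need not come from an mRNA that ends there, which was not tested. The pentamer ATTTA, part of the AU-rich elements that bind decay factors, occurred in 75.7% of distal and 38.1% of proximal intervals, whose median lengths were 1377 and 219 bases. The hexamers and the pentamer were searched on the strand of the gene. A longer interval has more room for a pentamer, and a match is a description of letters only.

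The first question was whether the distal share differed between the lines. In bulk libraries, fewer cells that use an end and less RNA of that end per cell cannot be told apart. It was tested by edgeR on the distal and proximal reads of each course, with the p-values adjusted over all 3139 genes that had 2 intervals with enough reads to test. No gene passed an adjusted p of 0.05, among the 1553 genes or among all tested (0%), and the smallest adjusted p of a listed gene was 0.411. At an unadjusted p under 0.05 there were 91 of the 1553 (5.86%), of which 51 had a higher and 40 a lower distal share in the knockdown line, against 8.86% of all genes tested. The median log2 difference in the distal over proximal ratio, knockdown over overexpression, was 0.10 for the listed genes and 0.10 for all tested. The median absolute difference was 0.294 between the means of the lines, 0.289 between the knockdown courses and 0.308 between the overexpression courses. A mean of 2 courses varies less than a single course, so these 3 values do not stand on equal footing. Without the unlabelled and the 720 min libraries the test also called 0 genes.

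**Figure D2:**
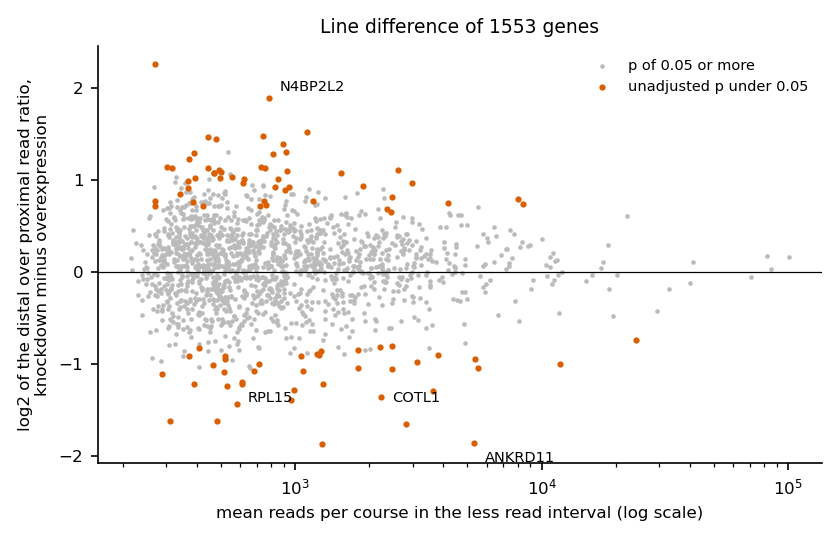
Log2 difference in the distal over proximal read ratio, knockdown over overexpression (y axis), against the mean reads per course of the less read interval (x axis, log scale), with 1 point per gene and orange for an unadjusted edgeR p under 0.05. The genes spread around the median of 0.10, and ANKRD11, RPL15, COTL1 and N4BP2L2 are among the genes with the smallest p-values, without passing the adjusted threshold.

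Among the 1553 genes, pairs that shared no transcript held most of the low p-values. An unadjusted p under 0.05 was found in 60 of 523 pairs without a shared transcript (11.5%), in 30 of 906 in separate exons of a transcript (3.31%) and in 1 of 124 in the same exon (0.806%). Pairs whose proximal interval held an annotated end had 79 of 1070 (7.38%) and the others 12 (2.48%). These shares stand beside 8.86% for all genes tested and 11.8% for the 1586 tested genes outside the list. The median proximal interval had 687 bases without a shared transcript, 152 in separate exons and 172 in the same exon. The difference between the groups was not tested.

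N4BP2L2 was among the genes with the smallest p-values and had a higher distal share in the knockdown line. Its distal interval (chr13:32432489-32432972, minus strand) took 9.34% to 38.3% of the reads in the knockdown libraries (median 24.5%) and 2.23% to 14.5% in the overexpression libraries (median 9.04%). The course sums were 22.6% and 23.6% in the knockdown line and 6.47% and 8.66% in the overexpression line, which separates the courses but not the single libraries. The log2 difference was 1.89 (SE 0.38, edgeR adjusted p = 0.411).

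Other genes with the smallest p-values had a lower distal share in the knockdown line. ANKRD11, an ankyrin repeat protein that acts on chromatin, had shares of 80.8% to 93.2% in the knockdown libraries (median 87.1%) and 93.9% to 98.8% in the overexpression libraries (median 96.1%), with no overlap. The log2 difference was −1.86 (SE 0.34, edgeR adjusted p = 0.411). Its proximal interval (chr16:89298868-89300962, minus strand) had 7199 and 8673 reads in the knockdown courses and 2538 and 2940 in the overexpression courses. Its distal interval (chr16:89279072-89285649) covers a large coding exon, has no hexamer in its last 50 bases and is not the last end that the gene is annotated with.

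COTL1, a coactosin-like protein that binds actin filaments, had distal shares of 97.2% in both knockdown courses and of 98.8% and 99% in the overexpression courses. The single libraries overlapped, at 95.5% to 98.8% in the knockdown line (median 96.9%) and 97.9% to 99.6% in the overexpression line (median 98.9%). The log2 difference was −1.36 (SE 0.26, edgeR adjusted p = 0.411). RPL15, a protein of the large ribosomal subunit, sent nearly all of its reads to the proximal interval (chr3:23919502-23920989, plus strand). Its distal share was 0.149% and 0.124% in the knockdown courses and 0.387% and 0.349% in the overexpression courses, and the libraries overlapped (0.0644% to 0.263%, median 0.143%, against 0.126% to 0.671%, median 0.337%). The log2 difference was −1.43 (SE 0.26, edgeR adjusted p = 0.411).

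Across the 17 knockdown and 17 overexpression libraries, the distal share of 4 genes, ANKRD11, ANTXR1, CTSC and MAP3K20, was lower in every knockdown library than in any overexpression library. Over all genes tested this held for 0.127%, and no gene (0%) had every knockdown library above. In CTSC, which encodes the lysosomal protease cathepsin C, the shares were 27.6% to 44.1% in the knockdown line (median 38.6%) and 44.4% to 58.4% in the overexpression line (median 50.9%), so the groups met without overlapping. By course the shares were 40.8%, 35%, 52.2% and 48.6%, and the log2 difference was −0.74 (SE 0.28, edgeR adjusted p = 0.514). ANTXR1, an anthrax toxin receptor that binds collagen, had a log2 difference of −1.29 (SE 0.30), and MAP3K20 is the stress kinase ZAK. Neither was called by edgeR. limma on the log2 ratio called both, and diffSpliceDGE called MAP3K20. Libraries of a course are time points and share the cells of that course, so this separation rests on 2 courses against 2.

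**Figure D3:**
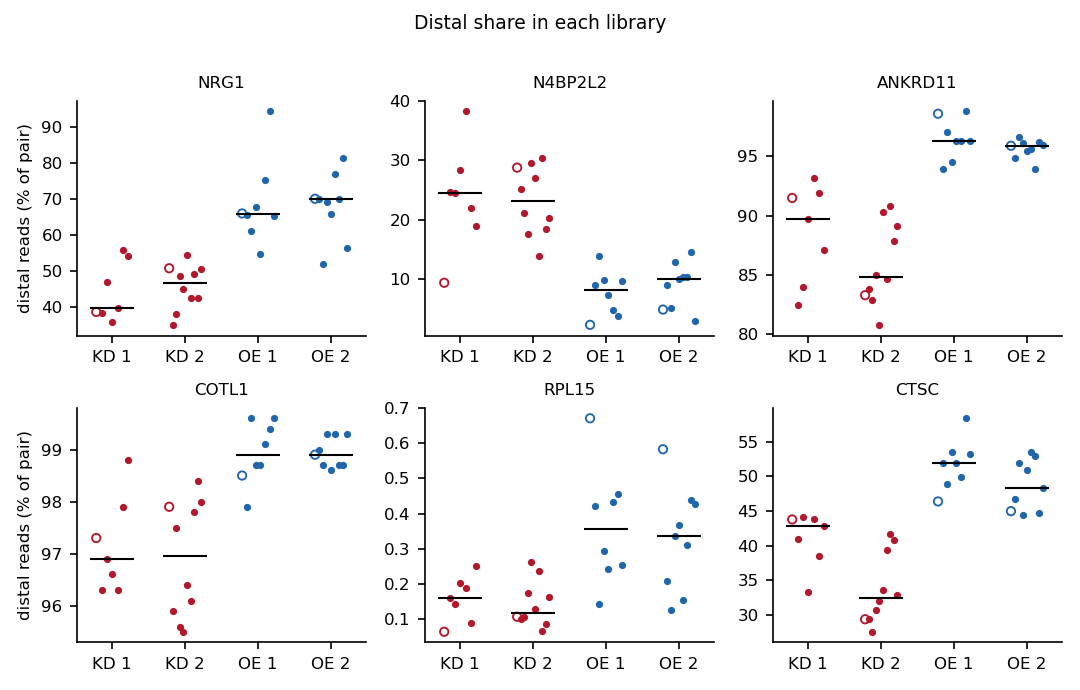
Distal share in every library (y axis, percent) for NRG1, N4BP2L2, ANKRD11, COTL1, RPL15 and CTSC, by course (x axis, knockdown 1 and 2, overexpression 1 and 2). Open circles are unlabelled libraries and lines are course medians, and the groups do not overlap in ANKRD11 and CTSC.

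DESeq2 on the same counts called 5 of the 1553 genes (0.446% of all tested), among them N4BP2L2 with a higher, and ANKRD11, NRG1 and WDR20 with a lower distal share in the knockdown line. diffSpliceDGE also called 5 (0.159% of all tested), and limma on the log2 ratio, added after the data were seen, called 12 (0.414%). The call therefore depended on the tool. The neuregulin gene NRG1, which encodes ligands of ERBB receptors, had distal shares of 34.9% to 55.9% in the knockdown libraries (median 44.9%) and 51.8% to 94.5% in the overexpression libraries (median 67.7%), a small overlap. WDR20, a WD repeat protein that activates the deubiquitinase USP12, had shares of 0.696% to 18.6% (median 12.8%) against 18% to 35.8% (median 26.3%).

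Genes known for alternative last exons or intronic polyadenylation were then read as a list. Of 26 listed, 18 were among the 1553 genes and none was called. An unadjusted edgeR p under 0.05 was found in 4 of the 18, among them TPM2, PDLIM7 and CLTC, and in 8.86% of all genes tested. Their median log2 difference was 0.07, beside 0.10 for all genes tested. TPM2, a tropomyosin that stabilises actin filaments, had distal shares of 95.1% to 97.2% in the knockdown libraries (median 96.1%) and 97.1% to 99.7% in the overexpression libraries (median 98%), with a log2 difference of −1.05 (SE 0.26, edgeR adjusted p = 0.411). PDLIM7, a PDZ and LIM domain protein of the actin cytoskeleton, had shares of 74.4% to 89.7% (median 79.6%) against 85% to 94.9% (median 87.9%), with a log2 difference of −0.90 (SE 0.29). CLTC, the clathrin heavy chain, had 99.7% in both knockdown courses and 99.6% and 99.4% in the overexpression courses.

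LMNA makes lamin C from its first kept interval and lamin A from its last, and both proteins line the inside of the nuclear envelope. The lamin A interval took 54.1% to 66.4% of the reads in the knockdown libraries (median 62.5%) and 58.2% to 74.6% in the overexpression libraries (median 67.2%), which overlapped (log2 −0.42, SE 0.27, edgeR adjusted p = 0.668). In ATP2A2, the calcium pump SERCA2, the distal share stayed between 16.9% and 19.2% over the courses. Of 22 genes known for tandem 3′ UTRs, 8 were among the 1553 (BCL2, HMGA2, TIMP2 and ELAVL1 among them). None of the 8 had a p under 0.05, and their median log2 difference was 0.00. The pairs tested were the first and last kept intervals, which need not be tandem sites. In BCL2 they lay at chr18:63313802-63318048 and chr18:63123346-63128624, and those of HMGA2 were also far apart. Tandem sites within 1 interval are counted together, so these values do not test the choice between tandem sites. BCL2, which protects cells from apoptosis, had the largest difference among them, with shares of 62.9% and 77.3% in the knockdown courses and 83% and 83.1% in the overexpression courses (log2 −1.03, SE 0.47, edgeR adjusted p = 0.581).

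The second question was whether RNA read in the distal interval lost its label at another rate than RNA read in the proximal one. Distal and proximal RNA here mean the RNA read in these intervals, whether or not it ends there. Half-lives were fitted per interval and course to the T>C rate left after the chase, less the rate in the unlabelled library. Both intervals had a half-life in all 4 courses in 25 of the 1553 genes. A fit needed enough reads, enough time points and label at 0 min. Of the intervals of all tested genes that met these limits, 39.8% to 64% per course had an accepted fit. The distal half-life was longer in 18 pairs and shorter in 7, with a median log2 ratio of 0.18. limma called 2 of the 25 (8%), TPM1 and HMGA2, in opposite directions.

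TPM1, a tropomyosin, had 12 kept intervals. Its first (chr15:63044234-63047726, plus strand) had a half-life of 2.72 h and 1.70 h in the knockdown courses and 1.23 h and 1.65 h in the overexpression courses, a mean of 1.83 h ± 0.634 (SD, n = 4). Its last (chr15:63071090-63071915), which held 81.8% to 91.9% of the gene's reads, had 10.1 h, 9.12 h, 7.65 h and 7.91 h, a mean of 8.68 h ± 1.12 (SD, n = 4). The distal RNA was the longer-lived in every course. The ratio was 4.93-fold (log2 2.30, SE 0.30, limma adjusted p = 0.00474). The first interval held 0.748% to 1.5% of the reads of the gene and has no hexamer in its last 50 bases.

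HMGA2, an architectural chromatin protein whose full 3′ UTR holds many let-7 sites, had the opposite order. Its first interval (chr12:65842591-65843523, plus strand) had half-lives of 4.51 h, 7.43 h, 5.68 h and 3.96 h in knockdown 1 and 2 and overexpression 1 and 2, a mean of 5.39 h ± 1.54 (SD, n = 4). Its last interval (chr12:65963245-65966295), the end of the 3′ UTR of the full-length mRNA, had 2.13 h, 2.16 h, 2.67 h and 1.42 h, a mean of 2.10 h ± 0.512 (SD, n = 4). The distal RNA was shorter-lived in every course, by 2.56-fold (log2 −1.36, SE 0.30, limma adjusted p = 0.047). At 360 min the label left was 54.8%, 52.5%, 45.2% and 8.81% in the first interval and 10.3%, 9.43%, 14.3% and 6.01% in the last, so overexpression 2 showed little of the difference at that time. By conversion counts the log2 ratio was −1.67 at 360 min (edgeR adjusted p = 0.163), and at 720 min it turned to 1.96 (adjusted p = 0.84), where the first interval had 0 conversions in both overexpression courses. In knockdown 1 and 2 the label left at 720 min was 19.2% and 42.2% in the first interval and 1.8% and 3.18% in the last. In overexpression 1 and 2 it was 0% and 0% in the first and 0% and 1.03% in the last. The calls of TPM1 and HMGA2 were both lost when either knockdown course was left out and with the replicate block, and at 5 CPM HMGA2 had too few values to be tested.

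Genes that missed the threshold include CTSC, whose half-lives were 6.05 h, 6.36 h, 6.35 h and 5.85 h for the proximal and 15.9 h, 10.9 h, 10.9 h and 9.05 h for the distal interval. All 4 distal values lay above the proximal ones (log2 0.89, SE 0.30, limma adjusted p = 0.11). In ATP2A2 the proximal interval had 5.39 h, 5.91 h, 7.03 h and 6.08 h and the distal one 5.14 h, 3.94 h, 2.54 h and 4.06 h (log2 −0.68, SE 0.32, limma adjusted p = 0.207). The lamin C interval of LMNA had 11 h, 13 h and 10 h and no accepted fit in overexpression 2, and the lamin A interval had 6.75 h, 6.86 h, 7.03 h and 8.33 h, so the half-lives of LMNA were not tested. Where both were fitted, the lamin C interval had the higher value. By conversion counts at 360 min LMNA was tested and not called (log2 −0.45, SE 0.35, edgeR adjusted p = 0.691).

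**Figure D4:**
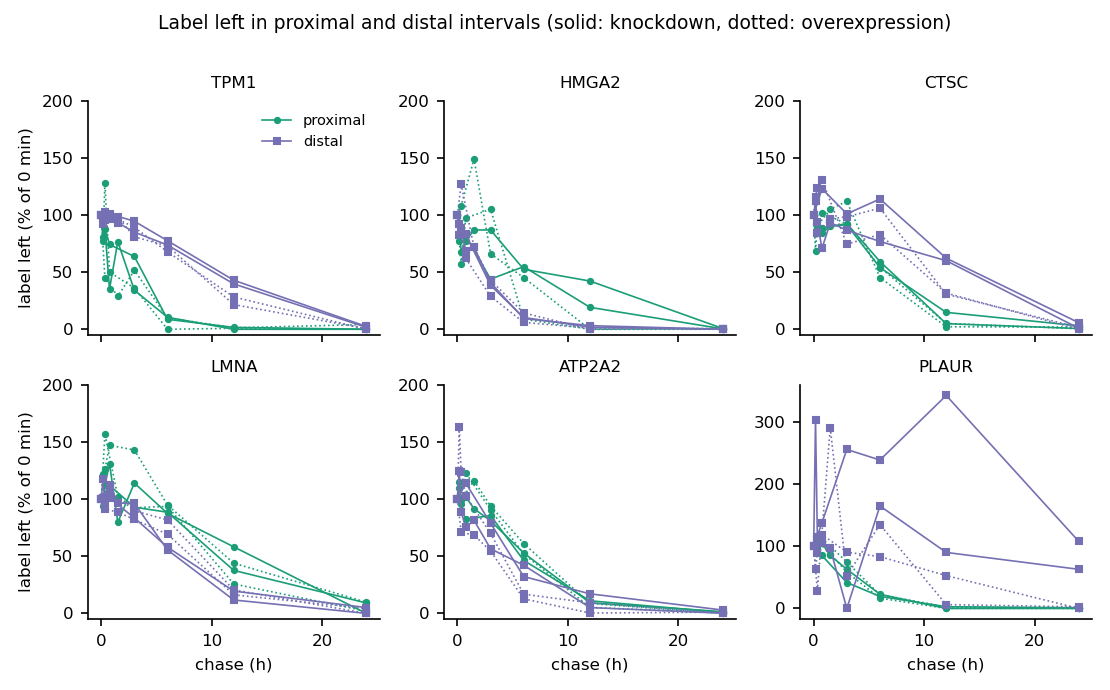
Label left, as a percentage of the rate at 0 min (y axis), against chase time in hours (x axis) for TPM1, HMGA2, CTSC, LMNA, ATP2A2 and PLAUR, with the proximal interval in green and the distal in violet, knockdown courses solid and overexpression courses dotted. The distal RNA of TPM1 keeps its label longer than the proximal RNA, and the distal RNA of HMGA2 loses it sooner in most courses.

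Counting T>C conversions directly, with the covered T bases as the exposure, allowed 389 pairs to be tested at 360 against 0 min, a test added after the data were seen. edgeR called 1 pair (0.257%), PLAUR, the urokinase receptor. Its proximal interval (chr19:43648576-43648889, minus strand), with 94% to 95.7% of the reads, kept 19.4%, 22.8%, 16.5% and 22.1% of its label at 360 min in knockdown 1 and 2 and overexpression 1 and 2. Its distal interval (chr19:43646095-43646456) read 239%, 165%, 135% and 83.4% of its rate at 0 min, so in 3 of its 4 courses the value lay above that at the start. The ratio was 6.37-fold (log2 2.67, SE 0.36, adjusted p = 0.0157). At 0 min the distal interval carried 19, 35, 35 and 43 conversions and the proximal one 3067, 3518, 2293 and 1829. The unadjusted p was under 0.05 in 51 pairs. PLAUR was no longer called when any 1 of the 4 courses was left out. No pair was called without knockdown 1 or without knockdown 2, TPM1 and RPS29 were called without overexpression 1, and TPM1 without overexpression 2.

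The distal over proximal half-life ratio was then compared between the lines. limma called 0 of 25 pairs (0%). The smallest p belonged to NT5E, the ecto-5′-nucleotidase CD73 (log2 −1.48, limma adjusted p = 0.669).

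At the end of the pulse, before any chase, the T>C rate could be compared in 502 pairs. It was higher in the distal interval in all 4 courses in 111 pairs and lower in all 4 in 40, with a median log2 ratio of 0.28. limma called none (0%), with 99 pairs at an unadjusted p under 0.05, of which 81 were higher and 18 lower in the distal interval. With the replicate number as a block, limma called 63, of which 54 were higher in the distal interval. ACACA, the acetyl-CoA carboxylase of fatty acid synthesis, had proximal rates of 0.192%, 0.501%, 0.0293% and 0.044% and distal rates of 0.511%, 0.957%, 1.18% and 1.15% (log2 3.10, limma adjusted p = 0.0804). Its proximal rates were lower in both overexpression courses than in both knockdown courses. The proximal interval of ACACA had 333 to 543 reads per course, so its rates rest on few conversions.

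The chase gave a further view of the read shares, 1440 against 0 min in the 4 courses. edgeR called no gene (0%). An unadjusted p under 0.05 was found in 57 of the 1553 genes (3.67%), 46 with a higher and 11 with a lower distal share at 1440 min, against 5.45% of all tested. HMGA2 had the smallest p. Its distal share was 89%, 92.2%, 91.5% and 93.6% at 0 min and 97.7%, 96.3%, 98.7% and 97.9% at 1440 min, higher in all 4 courses without overlap (log2 2.02, SE 0.38, edgeR adjusted p = 0.572). In the unlabelled libraries its first interval had 12290, 13530, 313 and 4669 covered T bases and its last 447288, 371940, 66067 and 157389. At 0 min the first had 39323, 31621, 13217 and 7180 and the last 351384, 426184, 153009 and 113413. By these counts, every unlabelled library held less of the first interval relative to the last than the 0 min library. Label and chase time were not tested apart. In SYNJ2, the phosphoinositide phosphatase synaptojanin 2, the share was 90%, 91.1%, 87.8% and 90.3% at 0 min and 96.3%, 96.3%, 96.2% and 96.2% at 1440 min. The same tests in DESeq2 called 16 of the 1553 genes (1.85% of all tested), 14 of them higher at 1440 min, and limma on the log2 ratio called HMGA2 alone (0.0319%). For HMGA2, the share of reads in the last interval was thus higher at 1440 than at 0 min, while its label was lost sooner. The reads count all RNA and the conversions the RNA made in the pulse.

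**Figure D5:**
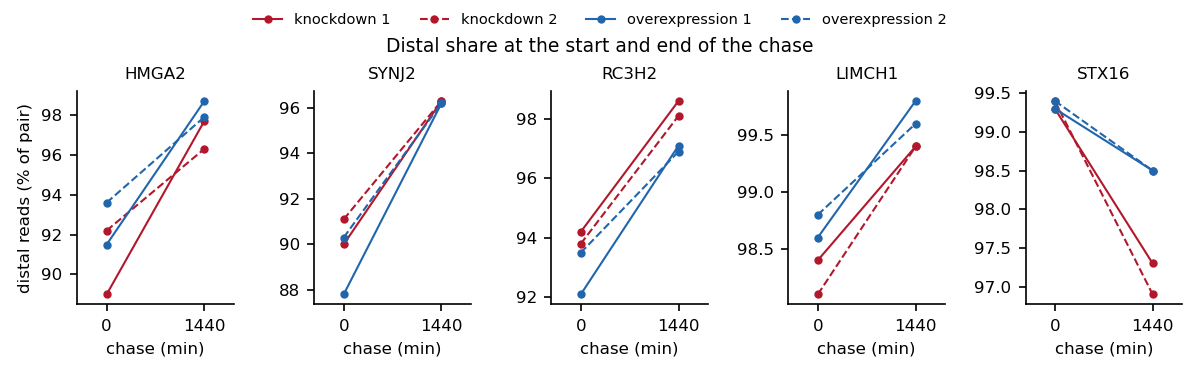
Distal share (y axis, percent) at 0 and 1440 min of the chase (x axis) for HMGA2, SYNJ2, RC3H2, LIMCH1 and STX16, with 1 line per course. In HMGA2 and SYNJ2 all 4 courses are higher at 1440 min, and no gene passed the adjusted threshold in edgeR.

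The levels of a list of polyadenylation factors and other RNA-binding proteins were read from the counts summed per gene. Of 35 listed factors, 33 were tested, and 12 were lower in the knockdown line, 0 higher and 21 not called (edgeR, adjusted p under 0.05). The 12 include SNRPA, SNRPC, HNRNPH1, SRSF3, SRSF7 and SCAF4, which are not subunits of the cleavage and polyadenylation complexes. Over all 13165 genes tested, 10.7% were lower and 11.2% higher. The median log2 difference was −0.27 for the factors and −0.01 for all genes. CPSF4, a zinc finger subunit that contacts the AATAAA hexamer, had 44.7 and 45.2 CPM in the knockdown courses and 65.9 and 69.7 CPM in the overexpression courses (log2 −0.59, SE 0.13, adjusted p = 0.00854). NUDT21, the subunit of cleavage factor I that favours distal sites in many genes, had 117 and 106 CPM against 167 and 149 CPM (log2 −0.51, SE 0.13, adjusted p = 0.0168). CSTF2, which binds downstream of the cleavage site, had 25.5 and 30.7 CPM against 37.8 and 41.6 CPM (log2 −0.50, SE 0.15, adjusted p = 0.0352). When 1 course was left out, 5 to 8 factors were lower. PCF11 (log2 −0.40, adjusted p 0.0675) and CPSF6 (log2 −0.25, adjusted p 0.261) did not pass.

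The summed level of the genes with separate intervals was read in the same test. Of the 1553 genes, 275 (17.7%) were lower and 145 (9.34%) higher, against 10.7% and 11.2% of all genes, with a median log2 difference of −0.07.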

How the data were processed

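QuantSeq SLAM-seq libraries (34, 17 per line) were read from the deposited SLAMdunk 0.4.3 tables, in which the authors give read counts per 3′ UTR interval (hg38), a CPM, the T>C conversion rate as a fraction and the covered T and conversion counts. The release of the interval annotation was not stated by any source read. CPM and T>C rates were recomputed from the deposited counts and the mapped reads behind the deposited CPM. CPM of gene totals came from edgeR. Intervals that name several genes (1168) were left out, and 112 genes dropped out by the multimapping limit. The genes and gene lists were chosen with earlier results of these data known, and named genes are the 5 with the smallest p where fewer than 3 passed the threshold, otherwise those past it, together with the listed genes. Some genes and sequences that this rule names are not reported here. Transcript structure came from GENCODE release 44.

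Read pairs were tested in edgeR 4.0.16 (quasi-likelihood, region by line), with limma 3.58.1 for half-life ratios and DESeq2 1.42.0 as an alternative. Half-lives required 1 CPM, 4 time points and R2 of at least 0.6. In counts simulated for the line comparison, with 200 of 3139 genes changed 2-fold, 186 were called, with 11 unchanged genes. The simulated counts used a single assumed spread for all genes, not one estimated from these courses. They check the code of the test and do not give the share of real 2-fold changes that it would call. Replicate numbers come from the labels. With 2 pairs of courses, whose deviations correlated at 0.154, they are not taken to pair the courses. Course sums held 167048700 to 201625832 reads, which limits precision for intervals near 200 reads.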

Additional observations from a re-analysis of the deposited data

Results flagged for a closer look

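MAP1B, a microtubule-associated protein, had distal over proximal half-life ratios that lay above 1 in both courses of the knockdown line and below 1 in both of the overexpression line. The proximal half-lives were 4.72 h, 3.41 h, 4.35 h and 5.27 h in knockdown 1 and 2 and overexpression 1 and 2, and the distal ones 4.87 h, 5.92 h, 4.32 h and 3.80 h. The intervals were close in knockdown 1 and overexpression 1 and farther apart in the other 2 courses. The log2 difference between the lines was 0.66, which limma did not call (adjusted p = 0.977).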

How the results depend on the processing

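The line difference in read shares called 0 genes, and also 0 with the replicate block, for 0 min alone, for the 2 most-read intervals, and without the unlabelled and 720 min libraries. DESeq2 and diffSpliceDGE each called 5, limma 12 and the fit on the listed genes alone 6, which is adjusted over the list alone and is not independent evidence. Leaving out 1 course gave 0 to 3, with 1 without knockdown 1 and 3 without knockdown 2. The half-life ratio called 2 pairs, 1 at 5 CPM, 0 at R2 of at least 0.8, 5 with common time points, 1 with a gap of at least 100 bases, 0 for label left at 360 min, 0 with no R2 limit, 0 with the replicate block and 0 without 720 min. Without 1 course it called 0 to 8, namely 0 without either knockdown course, 6 without overexpression 1 and 8 without overexpression 2. Conversion counts called 1, and 1 at 180 min, 4 at 720 min, 5 at 5000 covered T bases, 1 with a gap of at least 100 bases and 0 to 2 without 1 course. The half-life ratio by line called 0, 4 with common time points, 0 to 3 without 1 course, and 2 by conversion counts without overexpression 1. The chase change called 16 by DESeq2 and 1 by limma. The T>C rate at 0 min called 0, 3 without background subtraction, 63 with the replicate block and 1 by conversion counts at 5000 covered T bases. The abundance of genes called 2885, and 5251 with the replicate block, where 19 in place of 12 listed factors were lower. The cause was not tested. Of single genes, 7 values reversed. On the log2 scale HMGA2's half-life ratio was 1.96 by conversion counts at 720 min, CTSC's −0.10 at 180 min and OGA's −0.26 by conversion counts without overexpression 1. OGA's difference by line was 0.01 for label left at 360 min, and by conversion counts 1.65 at 720 min, 0.25 without knockdown 1 and 1.63 without overexpression 1. The other single-gene values kept direction and call in 315 cases, gained a call in 36 and lost one in 23. The half-life comparison covers 25 of 1553 pairs, and says nothing of the others.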
